A study of Mus musculus with 5 samples.

Results

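Bone morphogenetic proteins (BMPs) are secreted signalling proteins, and the 10 genes described here encode BMP ligands and the extracellular proteins that release, bind or block them: Bmp2, Bmp4, Bmp5, Bmp6, Bmp1, Chrd, Twsg1, Grem1, Fst and Fstl1. A gene was represented by a probe set that the platform annotation maps to that gene alone, and where a gene had several, by the one with the highest mean intensity. All 10 genes had a probe set, 17 in all, out of 12393 genes named on the array. These genes were chosen by name, with earlier results of these data known.

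Whole mouse lung was profiled with 5 oligonucleotide arrays, 1 for each condition, each carrying pooled RNA. The induced pool came from SM22-tet-BMPR2delx4+ mice on dox (doxycycline), with a right ventricular pressure of 50 ± 8 mmHg. The transgene encodes a dominant-negative form of the BMP receptor BMPR2 and is driven through the SM22 promoter, which is active in smooth muscle. Mice of the fvb/n strain, 8 weeks of age and kept in hypoxia for 4 weeks, made up the hypoxic pool, whose pressure was likewise 50 ± 8 mmHg. The other 3 pools had a pressure of 30 ± 3 mmHg: wild-type fvb/n mice aged 8 weeks, SM22-rtTA mice on dox, which carry the dox-dependent activator without the BMPR2 transgene, and SM22-tet-BMPR2delx4+ mice without dox, called uninduced below. For the 3 transgenic pools the label of 8 weeks may be an age or a treatment time. The labels leave unstated what kind of error follows each pressure, how many animals made a pool and of which sex. There are no replicate arrays, so every difference below is a value without a test, and the number of arrays limits the precision.

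BMP ligands bind a pair of receptor types at the cell surface, and the activated receptors phosphorylate SMAD proteins that enter the nucleus and switch on genes such as Id1. How much ligand reaches the receptor is set outside the cell: chordin and gremlin hold BMPs in inactive complexes, twisted gastrulation binds both BMP and chordin, and the protease encoded by Bmp1 cuts chordin and releases the ligand. In lung, BMP signalling is known for its part in airway branching and, through BMPR2 mutations, for heritable pulmonary arterial hypertension.

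Values are scaled intensities, which have no absolute unit and can be compared between pools for 1 probe set but not between genes. A noise floor was set at a scaled intensity of 276, the median of all values, and values under it were raised to it in every ratio. A gene was tested in a comparison where at least 1 of the pools was above the floor, and called where its ratio reached 1.5-fold. Of the 10 genes, 6 were above the floor in all pools (Bmp4, Bmp5, Bmp6, Bmp1, Twsg1 and Fstl1), 2 in some (Fst in 4 pools, Grem1 in 1) and 2 in none (Bmp2 and Chrd).

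The pools also differed in markers of other tissues, for which other tissue in the pool and a change within lung cannot be told apart in bulk RNA. Summed over 12 skeletal muscle markers, led by Acta1 and Ckm, the scaled intensity was 68154 after induction and 18030 in hypoxia, against 3039 to 5811 in the 3 normal-pressure pools. Over 8 markers of squamous epithelium, led by Krt4 and Krt13, it was 14953 and 23867, against 1391 to 1636. Over 10 proximal tubule markers of kidney, led by Miox and Kap, it was 48679 in wild type and 1638 to 3289 in the other 4 pools. The lung markers Sftpc, a surfactant gene, at 10705 to 13366, and Scgb1a1, a club cell gene, at 11067 to 13191, were high in all 5. The SD of the log2 ratio over the 5894 genes above the floor in all pools was 0.34 for SM22-rtTA over uninduced, and 0.60 for wild type over the mean of those 2 transgenic pools.

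**Figure D1:**
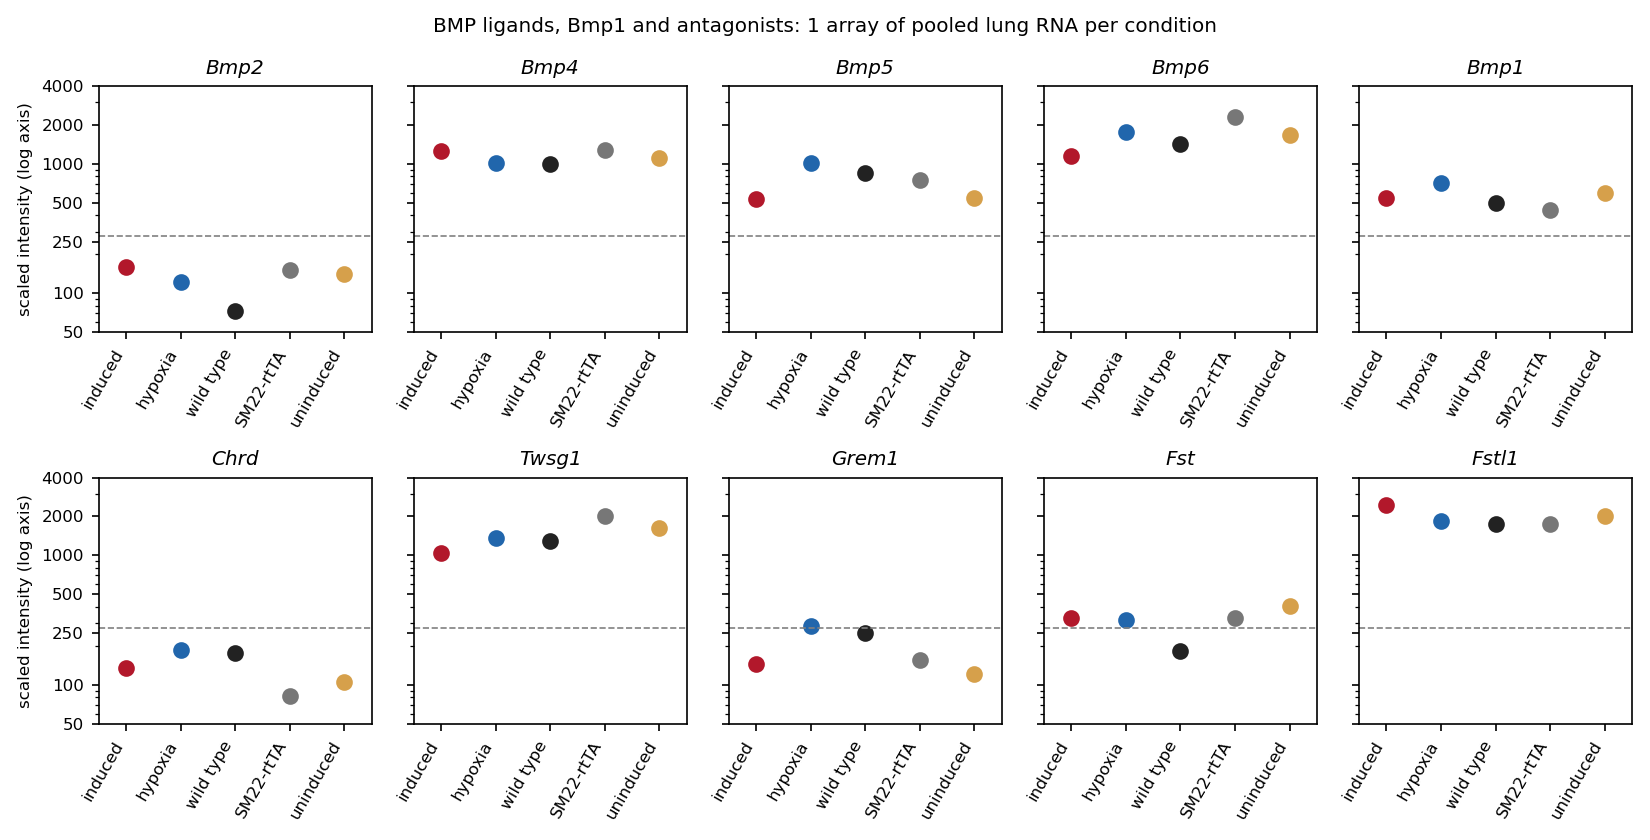
Scaled intensity (log axis) of the probe set that stands for each gene, 1 point for each of the 5 pools; the dashed line is the noise floor at 276. Bmp6 and Twsg1 were lowest in the induced pool (1151 and 1048) and highest in SM22-rtTA (2298 and 2025), Bmp5 was highest in hypoxia (1012), and all points of Bmp2 and Chrd lie under the floor.

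Bmp6 and Twsg1 were the members with the lowest ratios for the induced pool against the uninduced and the SM22-rtTA pool. Bmp6, a ligand of the same subgroup as Bmp5 and known outside the lung for setting hepcidin and thus iron levels, was at 1151 in the induced, 1756 in the hypoxic, 1434 in the wild-type, 2298 in the SM22-rtTA and 1677 in the uninduced pool. The induced pool was thus lowest, and lay 1.25-fold under the nearest normal-pressure pool. Against uninduced mice of the same genotype its log2 ratio was -0.54, a 1.46-fold difference that was not called. Against SM22-rtTA, the control that also received dox, it was -0.998, or 1.997-fold, and was called lower.

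Twsg1 encodes twisted gastrulation, which can block BMP by tightening its complex with chordin or free it by helping chordin to be cut. It was at 1048 in the induced, 1355 in the hypoxic, 1302 in the wild-type, 2025 in the SM22-rtTA and 1618 in the uninduced pool. The induced pool was again lowest, 1.24-fold under the nearest normal-pressure pool. The log2 ratio was -0.63 against uninduced (1.54-fold) and -0.95 against SM22-rtTA (1.93-fold), both called lower. In these comparisons 2.49% and 1.91% of the tested genes had a lower ratio than Twsg1, and 3.65% and 1.71% a lower ratio than Bmp6.

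The other probe sets of Twsg1 did not all give the same value. The one second in intensity was at 460 in the induced, 1012 in the hypoxic, 783 in the wild-type, 1675 in the SM22-rtTA and 717 in the uninduced pool, with a log2 ratio of -0.64 against uninduced and -1.86 against SM22-rtTA. For this probe set too the induced pool was lowest and SM22-rtTA highest. The third was under the floor in both BMPR2delx4+ pools, at 220 in the induced and 227 in the uninduced pool, and at 908 in SM22-rtTA, while the fourth was under the floor in every pool. With the mean over all 4 probe sets the log2 ratio against uninduced was -0.32 and Twsg1 was not called. The probe set that stands for the gene carries the suffix s_at, the array maker's mark for probes that may match more than 1 transcript.

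**Figure D2:**
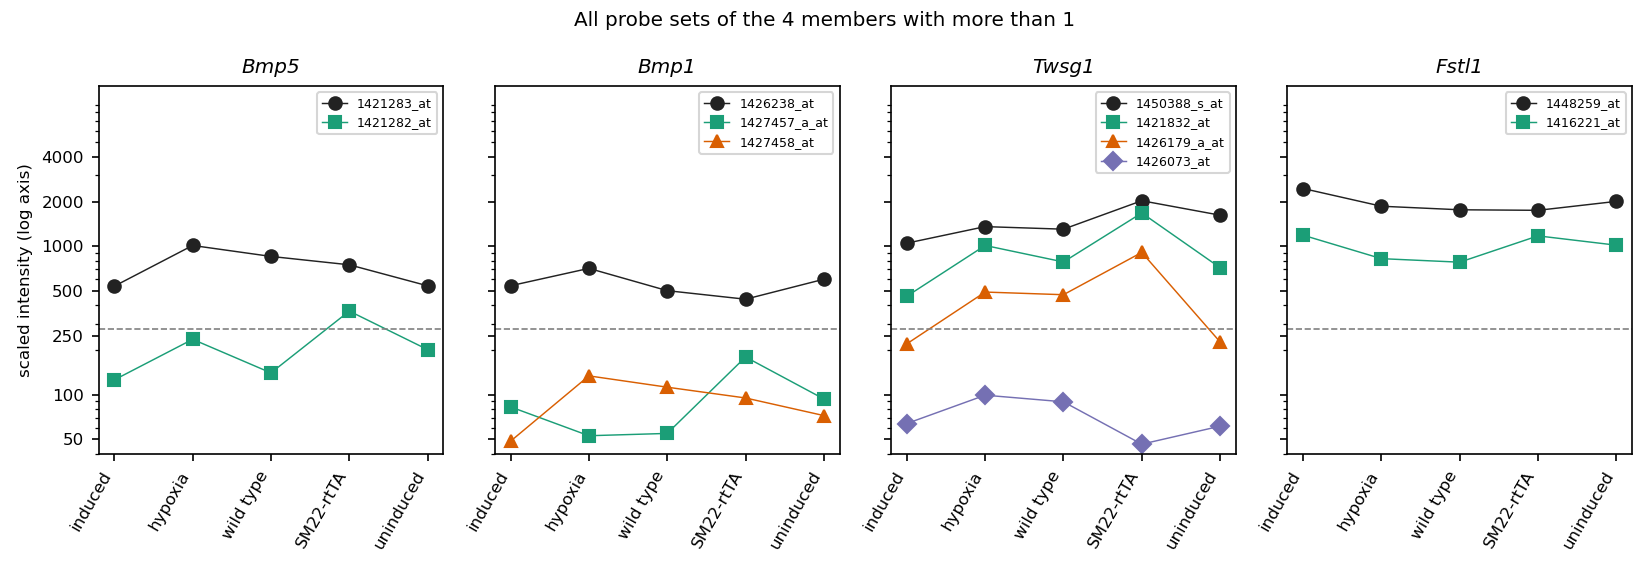
Scaled intensity (log axis) of every probe set of the 4 genes with more than 1, by pool, with the noise floor dashed; lines join the points of a probe set and mean no order of the pools. For Twsg1 the 2 brighter probe sets were lowest in the induced pool (1048 and 460) and highest in SM22-rtTA (2025 and 1675), while the second probe set of Bmp5 was above the floor in SM22-rtTA alone (366).

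Across the 5 pools Bmp6 and Twsg1 had the most similar profiles of the 15 pairs that the 6 genes above the floor in all pools can form. After each gene was centred on its own mean, their log2 values differed by a root mean square of 0.11. The other pairs differed by 0.18 to 0.51. Of 5893 genes above the floor in all pools, 20 (0.339%) were nearer to Bmp6 than Twsg1 was. For Twsg1 this likeness rests on the probe set that stands for the gene, with a log2 range of 0.95. Its probe set second in intensity had a wider range, 1.86, and its likeness to Bmp6 was not computed. By the probe sets that stand for them, Bmp6 had the widest range of the 6, 0.998 on the log2 scale. The genes nearest to it were Hhex, a homeobox transcription factor (root mean square difference 0.036), the integrin beta chain Itgb1 (0.044) and Myadm (0.058).

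For Bmp6 and Twsg1, picked for their likeness in these data, the 250 bases before the transcription start are shown, from RefSeq on GRCm38.p6. Whether the pair share regulation was not tested. The stretch for Bmp6 is chr13:38345466-38345715 on the plus strand and that for Twsg1 is chr17:65951188-65951437 on the minus strand. Capitals mark matches, on either strand, to a GC-rich SMAD element (GGCGCC), the SMAD box (CAGAC) or a form of the hypoxia response core (ACGTG). Other forms of that core were not searched for.
Bmp6: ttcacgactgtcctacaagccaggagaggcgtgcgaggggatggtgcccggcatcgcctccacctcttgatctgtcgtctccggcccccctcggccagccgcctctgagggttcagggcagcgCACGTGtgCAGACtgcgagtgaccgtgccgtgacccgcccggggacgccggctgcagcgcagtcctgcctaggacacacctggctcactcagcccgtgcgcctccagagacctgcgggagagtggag
Twsg1: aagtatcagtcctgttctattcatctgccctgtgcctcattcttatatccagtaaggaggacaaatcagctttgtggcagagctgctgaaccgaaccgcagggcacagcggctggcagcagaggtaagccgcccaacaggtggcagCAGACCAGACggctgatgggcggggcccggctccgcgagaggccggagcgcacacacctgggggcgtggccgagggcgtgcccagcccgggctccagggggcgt
The Bmp6 stretch holds CAGAC 119 bases before the start and, at 127 bases, the palindrome CACGTG, in which ACGTG is read on both strands and overlaps itself. The Twsg1 stretch holds CAGAC at 104 and again at 99 bases before the start. CAGAC is found in 42.2% of the 32851 promoter stretches of this length, ACGTG in 16.6% and GGCGCC in 9.59%, and neither gene has GGCGCC. Of the other genes, 5 had a stretch in the table: Bmp4 holds ACGTG, Bmp5 CAGAC, Chrd GGCGCC, Grem1 GGCGCC and CAGAC, and Fstl1 none of these letters. A match of letters describes the sequence and is not a bound site.

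Most endothelial and alveolar markers, like Bmp6 and Twsg1, had log2 ratios below 0 in both induced comparisons. Summed, the endothelial and alveolar type 1 markers were lowest in wild type, and the type 2 markers in the induced pool. All 10 endothelial markers, led by Cdh5 and the co-receptor Eng, were above the floor in every pool, and their summed intensity was 21871 in the induced, 25666 in the hypoxic, 20557 in the wild-type, 30184 in the SM22-rtTA and 29979 in the uninduced pool. In each induced comparison 9 of the 10 had a log2 ratio below 0, Kdr being the exception against uninduced and Vwf against SM22-rtTA, with medians of -0.39 against uninduced and -0.57 against SM22-rtTA. The 7 measured alveolar type 2 markers were all below 0 in both, with medians of -0.40 and -0.29, and their sum was 39522 in the induced pool, against 49945 to 52573 in the other 4. The 6 type 1 markers summed to 26161 in the induced, 30619 in the hypoxic, 23540 in the wild-type, 31554 in the SM22-rtTA and 31681 in the uninduced pool. The 8 fibroblast markers, led by Col3a1 and Dcn, summed to 22092 in the induced, 25167 in the hypoxic, 21467 in the wild-type, 27198 in the SM22-rtTA and 22324 in the uninduced pool. Within that list the log2 ratio of induced over uninduced ran both ways: Lum (at least 1.66, with uninduced at the floor) was called higher, Mfap4 (-1.54) and Tcf21 (-0.67) were called lower, and Col3a1 was at 0.53 and Dcn at 0.52 without a call. The part of these markers in the differences of Bmp6 and Twsg1 was not tested, and in bulk lung RNA fewer cells of a type and less RNA per cell cannot be told apart.

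Bmp5 was highest in the hypoxic pool. This ligand, known in mice from the short ear mutation, was at 538 in the induced, 1012 in the hypoxic, 854 in the wild-type, 750 in the SM22-rtTA and 541 in the uninduced pool. The hypoxic value lay 1.19-fold above the nearest normal-pressure pool, which was the wild type. Its log2 ratio was 0.25 against wild type, not called, and 0.67 (1.59-fold) against the mean of the 2 transgenic normal-pressure pools, called higher. With intensities as deposited the ratio against the transgenic mean was 0.50 and was not called. The induced and uninduced values were nearly equal, with a log2 ratio of -0.01. The second probe set of Bmp5 was above the floor in SM22-rtTA alone, at 366, and at 126 in the induced, 236 in the hypoxic, 140 in the wild-type and 201 in the uninduced pool. With hypoxia and uninduced both at the floor it gives no measured ratio of hypoxia over the transgenic mean, and so bears on the first probe set in neither direction.

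Set directly against each other, the pools with raised pressure differed in both of these ligands. The log2 ratio of induced over hypoxia was -0.91 for Bmp5 (1.88-fold) and -0.61 for Bmp6 (1.53-fold), and 3.97% and 11.3% of the tested genes had a lower ratio. These were the 2 called of the 8 members tested, both lower, where 23.8% of 8020 genes were called (12.2% lower). Neither call held under every setting. With intensities as deposited Bmp6 was at -0.49 and not called, and with a pseudocount of 100 in place of the floor it was at -0.57 and not called, while Grem1 was. With the mean of probe sets Bmp5 was at -0.46 and not called. Its second probe set was at the floor in both pools and entered that mean as a ratio of 0. The loss of this call is therefore not a measured disagreement between probe sets. The induced and hypoxic pools differ in genotype, in dox and in oxygen at once, which cannot be told apart here.

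Bmp4, the ligand of lung branching and a close relative of Bmp2, varied least. It was at 1253 in the induced, 1024 in the hypoxic, 1002 in the wild-type, 1291 in the SM22-rtTA and 1111 in the uninduced pool, and the induced and hypoxic values lay inside the range of the normal-pressure pools. Its log2 ratio was 0.17 for induced over uninduced and 0.03 for hypoxia over wild type. Bmp2 was under the floor throughout, at 161 in the induced, 122 in the hypoxic, 73.5 in the wild-type, 151 in the SM22-rtTA and 142 in the uninduced pool, so no ratio is given for it.

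Bmp1 is named with the BMPs but encodes a metalloprotease, the procollagen C-proteinase, which also cuts chordin. It was at 542 in the induced, 709 in the hypoxic, 502 in the wild-type, 440 in the SM22-rtTA and 599 in the uninduced pool. Hypoxia was the highest of the 5, 1.18-fold above the nearest normal-pressure pool. Its log2 ratio was 0.50 against wild type (1.41-fold) and 0.47 against the transgenic mean (1.38-fold), neither of them called. For the induced pool the ratio was -0.15 against uninduced and 0.30 against SM22-rtTA, so its sign depended on the control. The other 2 probe sets of Bmp1 were under the floor in all pools.

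Fstl1, a follistatin-like glycoprotein that opposes BMP4 in the developing mouse lung, was highest in the induced pool. It was at 2448 in the induced, 1859 in the hypoxic, 1760 in the wild-type, 1745 in the SM22-rtTA and 2005 in the uninduced pool. The induced value was 1.22-fold above the nearest normal-pressure pool. The log2 ratio was 0.29 against uninduced and 0.49 against SM22-rtTA, neither called. Its second probe set was at 1187 in the induced, 825 in the hypoxic, 781 in the wild-type, 1174 in the SM22-rtTA and 1016 in the uninduced pool, with log2 ratios of 0.22 and 0.02.

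The remaining antagonists were at or near the floor. Follistatin (Fst), which binds activins and some BMPs, was at 330 in the induced, 318 in the hypoxic, 183 in the wild-type, 329 in the SM22-rtTA and 408 in the uninduced pool. With wild type under the floor, hypoxia was at least 1.15-fold above it, while its log2 ratio against the transgenic mean was -0.21. Gremlin (Grem1) was at 144 in the induced, 283 in the hypoxic, 251 in the wild-type, 155 in the SM22-rtTA and 121 in the uninduced pool, so it passed the floor in hypoxia alone and by little. With the floor at the 30th percentile of all values, its log2 ratio for hypoxia over the transgenic mean was 0.98 and was called, and that of Fst for hypoxia over wild type was 0.79. Chordin (Chrd) was at 134 in the induced, 187 in the hypoxic, 176 in the wild-type, 81.6 in the SM22-rtTA and 106 in the uninduced pool, all under the floor.

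**Figure D3:**
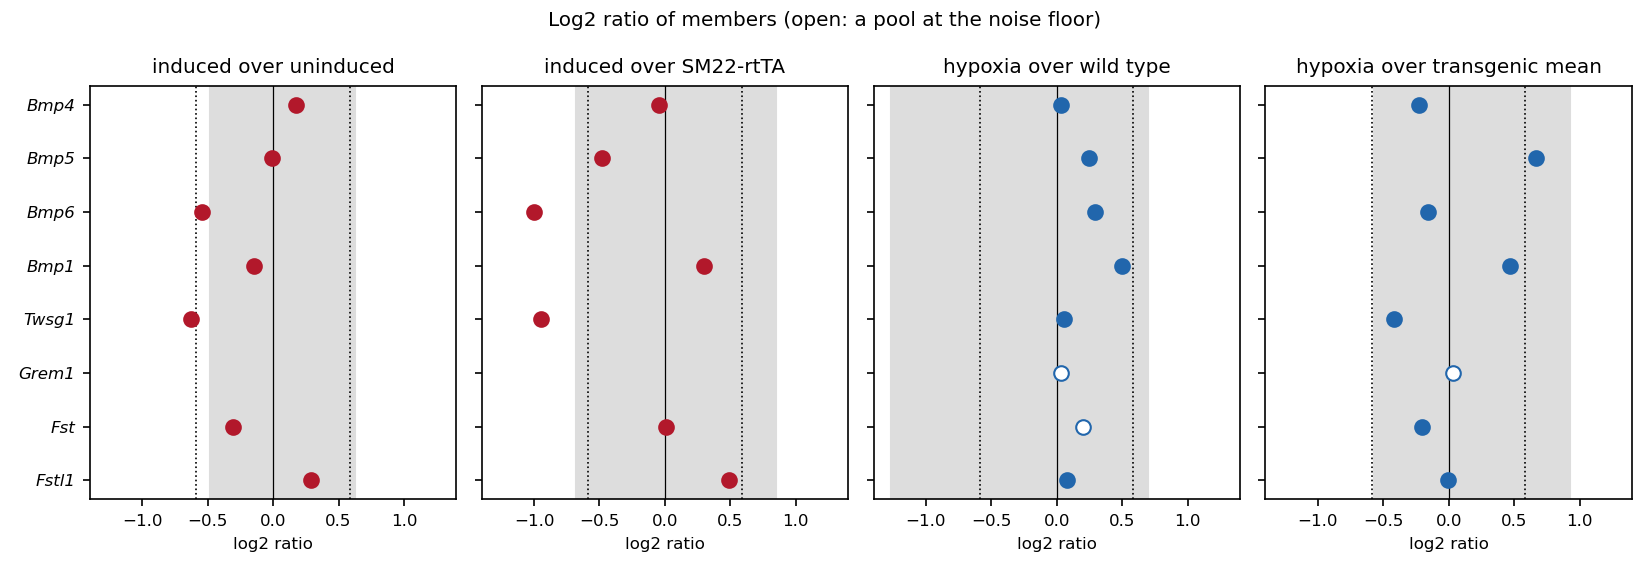
Log2 ratio of the 8 genes above the floor in at least 1 pool, in 4 comparisons; grey bands span the 5th to 95th percentile of all tested genes, dotted lines mark 1.5-fold, open points have a pool at the floor, and genes at the floor on both sides are not drawn. Twsg1 (-0.63) lies past 1.5-fold in the comparison with uninduced mice, Bmp6 (-0.998) and Twsg1 (-0.95) in that with SM22-rtTA, and Bmp5 (0.67) in that of hypoxia with the transgenic mean.

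Counted over the group, few of the 10 genes were called in any comparison. After induction 7 were tested against uninduced, and 1, Twsg1, was called lower, where 8.87% of 7427 genes were called (2.99% lower). The median log2 ratio was -0.15, against 0.01 over all tested genes. Against SM22-rtTA, 2 of 7 were called, both lower, where 18.2% of 7543 genes were called (7.04% lower), with medians of -0.04 and 0.08. Both induced comparisons share the induced array. Each of these counts rests on 1 or 2 genes.

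In hypoxia 0 of 8 tested genes were called against wild type, where 21.0% of 8047 genes were called. The log2 ratio was above 0 for each of the 8, from 0.03 to 0.50 with Grem1 and Fst as bounds. Grem1 and Fst had wild type at the floor and were tested through the hypoxic pool alone, so their ratios could only be above 0. The same holds for Grem1 against the transgenic mean. The median was 0.14, against 0.06 over all tested genes, and the share of all tested genes above 0 was not counted. Against the transgenic mean 1 of 8, Bmp5, was called higher, where 17.6% of 8038 genes were called (13.0% higher), and 3 of the 8 were above 0, with a median of -0.08, against -0.01 over all tested genes. With intensities as deposited the median over all genes was -0.15, Bmp5 was not called and Twsg1, at -0.59, was called lower. The other 5 were below 0, so their sign depended on the control, although Fstl1, at -0.01, was at 0.04 after quantile normalization. Bmp6, for example, stood at 0.29 over wild type but at -0.16 over the transgenic mean on the log2 scale, and Twsg1 at 0.06 and -0.42.

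The normal-pressure pools also differed among themselves. SM22-rtTA was above uninduced by 0.47 for Bmp5, 0.45 for Bmp6 and 0.32 for Twsg1 on the log2 scale, and under it for Bmp1, at -0.45. Of 7 tested, 0 were called, where 9.05% of 7241 genes were called. With other probe sets Twsg1 differed more between these controls. The one second in intensity gave 1.22, past 1.5-fold, and the third at least 1.72, with uninduced at the floor. Wild type was under the transgenic mean for Twsg1 (-0.47) and Bmp6 (-0.45) and above it for Bmp5 (0.42), and 0 of 7 were called, where 28.9% of 8112 genes were called. With intensities as deposited these ratios were -0.70 for Twsg1 and -0.67 for Bmp6, both called lower. Of the 6 genes above the floor in all pools, 4 lay outside the range of the 3 normal-pressure pools after induction, Fstl1 above and Bmp5, Bmp6 and Twsg1 below, where 43.6% of 5894 genes lay outside it. In hypoxia 2 of 6 did, Bmp5 and Bmp1, both above, where 46.1% of these genes did. After induction Bmp5 lay only 1.005-fold under the lowest normal-pressure pool. The second probe set of Fstl1 was at 1187 in the induced pool, against 1174 in SM22-rtTA.

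The other genes of the pathway were taken from 6 lists of 61 genes, of which 50 had a probe set. After induction 27 of the 50 were tested, and 1 was called higher and 4 lower, where 8.87% of all tested genes were called (2.99% lower). The lower ones were Eng, a co-receptor of endothelium that is also on the endothelial list (2651 in the induced pool, against 4497 in the uninduced), the BMP targets Id1 (1576 against 2759) and Hey1 (781 against 1350), and the inhibitory Smad7 (862 against 1299). Id4 was higher, at 656 against 395. Against SM22-rtTA, 28 were tested, with 3 called higher and 5 lower, where 18.2% of all tested genes were called (7.04% lower), and 5 of these 8 also lay outside the range of the 3 normal-pressure pools. Id1, Smad7 and Id4 had log2 ratios of -0.82, -0.91 and 0.82 there, past 1.5-fold as against uninduced, while Eng at -0.54 and Hey1 at -0.35 were not called.

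The 12 BMP-responsive genes, 8 of them tested, had a median log2 ratio of -0.47 against uninduced, with 6 below 0 and 2 above, and of -0.34 against SM22-rtTA. Over all tested genes the medians were 0.01 and 0.08. The endothelial and alveolar type 2 medians given above lay in the same direction, at -0.39 and -0.40 against uninduced and at -0.57 and -0.29 against SM22-rtTA, and their part in the lower targets was not tested. Of the 8, 4 were called against uninduced, where 8.87% of all tested genes were called, and 0 at 2-fold. With the second probe set 1 was called, but Id1, Hey1 and Smad7 have 1 probe set each and could not be called there. In the induced pool the log2 ratios of the ligands were 0.17 for Bmp4, -0.01 for Bmp5 and -0.54 for Bmp6 against uninduced. Against SM22-rtTA they were -0.04, -0.48 and -0.998 in that order.

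Among the other BMP and GDF ligands 0 of 2 tested were called against uninduced, where 8.87% of all tested genes were called. Against SM22-rtTA, where 18.2% were called, 1 of 2, Gdf2, was called higher at a log2 ratio of 0.61. It was not called there with intensities as deposited or after quantile normalization. All 3 tested, Bmp7, Bmp8a and Gdf2, were called higher for hypoxia over the transgenic mean, where 17.6% of all tested genes were called (13.0% higher). The same 3 were called lower for induced over hypoxia, where 23.8% were called (12.2% lower). Both comparisons share the hypoxic array. Bmp7 was at the floor in the induced and both transgenic pools, so it was tested through the hypoxic pool alone and its direction was fixed. Only these 3 of the 7 listed ligands with a probe set passed the floor in any pool. None of the 3 was called for hypoxia over wild type. The brightest, Gdf2, the liver-made BMP9 that acts on endothelium, was at 560 in the induced, 980 in the hypoxic, 680 in the wild-type, 367 in the SM22-rtTA and 391 in the uninduced pool. Inhbc, an activin-type subunit of liver, was at 318 in the induced, 472 in the hypoxic and 376 in the wild-type pool and at the floor in both others.

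In hypoxia 30 of the 50 pathway genes were tested against wild type, with 0 called higher and 2 lower, where 21.0% of all tested genes were called. Neither lay outside the range of the normal-pressure pools. For both, wild type was the highest of the 5 pools. Sostdc1, a BMP and WNT antagonist expressed in kidney, was at 1158 in wild type and at the floor in the other 4 pools, so hypoxia was at least 4.19-fold lower. Id2 was at 1064 in hypoxia against 2282 in wild type, and at 657 to 893 in the other pools. The 10 kidney proximal tubule markers summed to 48679 in wild type, as given above, and their part in these 2 differences was not tested. Against the transgenic mean 32 were tested, with 7 called higher and 1 lower, where 17.6% of all tested genes were called (13.0% higher), and 5 of the 8 lay outside the normal-pressure range. The higher ones were the ligands Gdf2 (log2 ratio 1.37), Bmp8a (0.84), Bmp7 (0.66) and Inhbc (0.77), the antagonist Cer1 (1.28), the receptor Acvr2b (0.75) and Smad9 (0.61). At least 1 of the transgenic pools was at the floor for each of these except Gdf2, so the other 6 ratios are lower bounds. Bmp7, Cer1, Inhbc and Smad9 were at the floor in both transgenic pools. They were thus tested through the hypoxic pool alone and could not have been lower. The lower one was the inhibitory Smad6, at -0.65. These 8, and Lum, Mfap4, Tcf21, Kdr and Vwf above, are named after their values were seen.

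**Figure D4:**
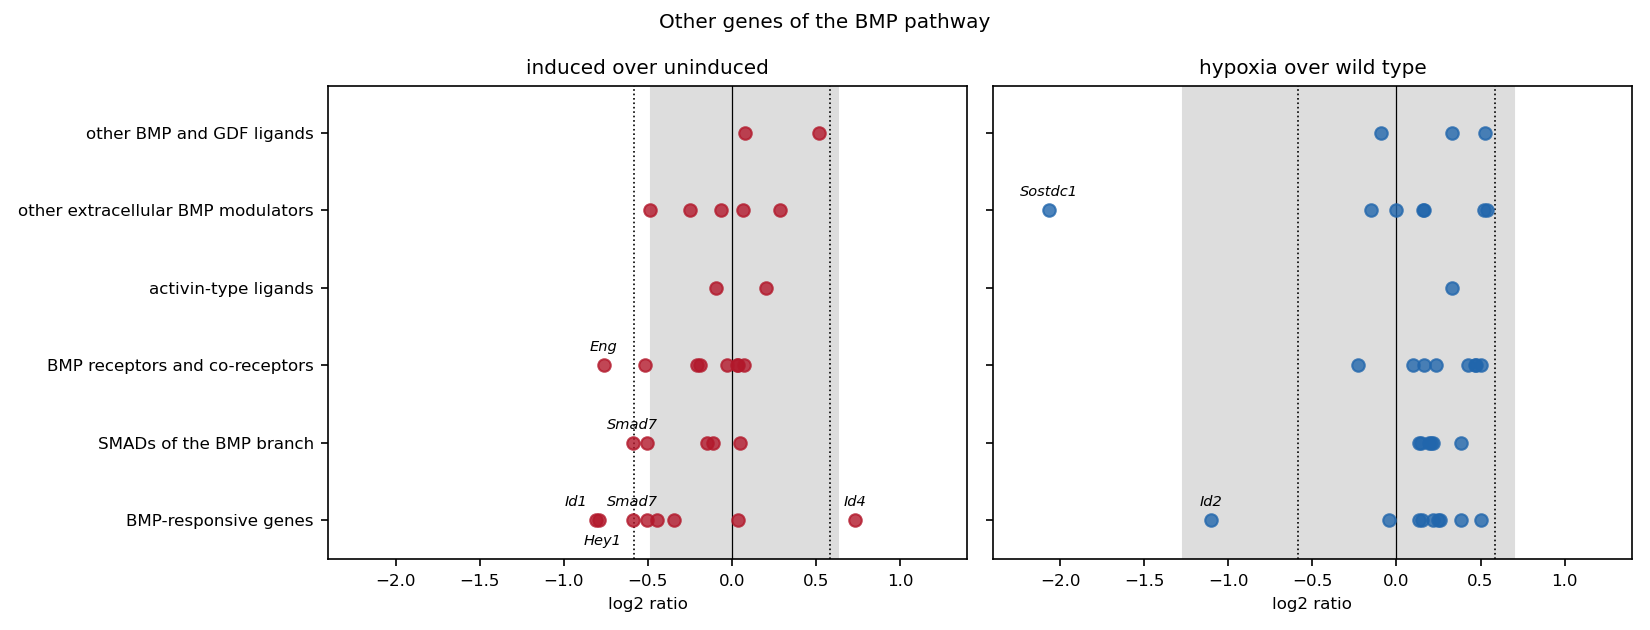
Log2 ratio of the other pathway genes above the floor in at least 1 of the 2 pools, by list, for induced over uninduced and hypoxia over wild type; grey bands span the 5th to 95th percentile of all tested genes, dotted lines mark 1.5-fold, and called genes are named. After induction Id1 (-0.81), Hey1 (-0.79), Eng (-0.76) and Smad7 (-0.59) lie to the left and Id4 (0.73) to the right, and in hypoxia Sostdc1 (-2.07, a bound) and Id2 (-1.10) lie to the left.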

How the data were processed

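The deposited values are linear intensities, 1 per probe set, in a table of 22626 probe sets and 5 arrays; neither labels nor file name the summary algorithm or the scaling. No intensity in the deposited table lay under 50, and between 9.85% and 12.5% of each array sat at exactly 50. With Python 3.11.15, numpy 2.4.6 and pandas 2.3.3, log2 values were shifted by -0.11 to 0.13 so that all arrays shared a median over 9046 probe sets above the median of every array. The floor was the 50th percentile of the shifted values. Symbols were updated by gene ID from RefSeq (GRCm38.p6); 20380 probe sets had 1 gene, 691 several and 1555 none. A mean of 2 pools was taken on the log2 scale. A pathway list gives every gene called in either matched comparison, at most 4, or its brightest gene; a marker list gives its 2 brightest. The members, lists and rules were chosen with earlier results of these data known. Ratios and calls were tested on simulated data. Alternatives covered scaling, floor, pseudocount, probe set summary, fold, control and normal-pressure range.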

Additional observations from a re-analysis of the deposited data

Results flagged for a closer look

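Bmp5 and Bmp6 had log2 ratios of opposite sign in the 2 forms of raised pressure, each against its matched control, and were over 1.5-fold apart between the induced and hypoxic pools. For Bmp5 induced over hypoxia was -0.91, with matched log2 ratios of -0.01 after induction, which is nearly 0, and 0.25 in hypoxia. For Bmp6 it was -0.61, with matched log2 ratios of -0.54 and 0.29. The difference was not tested, since each pool is 1 array, and against the transgenic mean the hypoxic ratio of Bmp6 was -0.16. Opposite signs were also found for Twsg1 (-0.63 and 0.06), Bmp1 (-0.15 and 0.50) and Fst (-0.31 and 0.20, a bound). These were not called between the induced and hypoxic pools. The calls of Bmp5 and Bmp6 between those pools did not hold under every setting, as given above.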

How the results depend on the processing

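Of 327 recomputed member log2 ratios, 301 moved by less than the SD of 0.34 between the 2 transgenic normal-pressure pools, 25 moved further and 1 turned its sign after a call: with the second probe set Bmp5 was at -0.20 for hypoxia over the transgenic mean, in place of 0.67, but hypoxia and uninduced are at the floor there, so the reversal is not measured. The 301 include ratios that a setting could not move. Bmp4 and Bmp6, for example, have 1 probe set each and keep their ratios with the mean of probe sets. Of 372 counts of called genes in the other pathway lists, 118 moved by over 1.5 times. Uncalled ratios whose sign turned included Fstl1 for SM22-rtTA over uninduced (-0.20, and 0.21 with its second probe set). Intensities as deposited moved the median of all genes from -0.01 to -0.15 for hypoxia over the transgenic mean, from 0.00 to -0.18 for wild type over it, and from 0.00 to 0.12 for induced over hypoxia. The higher and lower calls then split 743 and 877 in place of 1042 and 374, 1002 and 1700 in place of 1457 and 886 (1210 and 1244 after quantile normalization), and 1303 and 692 in place of 933 and 978. For hypoxia over wild type quantile normalization gave 927 and 922 in place of 659 and 1031.

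At 2-fold 0 were called in each of the 7 comparisons, and the share of genes called was 2.54% for induced over uninduced, 4.89% for induced over SM22-rtTA, 8.66% for hypoxia over wild type, 4.42% for hypoxia over the transgenic mean, 1.49% for SM22-rtTA over uninduced, 5.5% for induced over hypoxia and 10.5% for wild type over the transgenic mean. For induced over uninduced 0 were called with the mean of probe sets and 0 with a pseudocount of 100 in place of the floor, and 2 with SM22-rtTA as control, where 18.2% of genes were. In the mean of probe sets, a probe set at the floor on both sides enters as a ratio of 0. For hypoxia over wild type 1 (Fst) was called with the floor at the 30th percentile and 1 (Bmp5) with the transgenic mean as control. For hypoxia over the transgenic mean the number was 2 with the floor at the 30th percentile and 2 with the pseudocount, and 0 with the mean of probe sets and 0 with the second probe set, which 4 genes have. For induced over SM22-rtTA it was 1 with the second probe set. For induced over hypoxia it was 1 (Bmp5) as deposited, 1 (Bmp6) with the mean of probe sets, 1 (Twsg1) with the second probe set and 3 (Grem1 added) with the floor at the 30th percentile. For SM22-rtTA over uninduced it was 1 (Twsg1) with the mean of probe sets and 1 with the second. For wild type over the transgenic mean it was 2 (Bmp6 and Twsg1) as deposited, 2 (Grem1 and Fst) with the floor at the 30th percentile and 1 with the pseudocount.

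The share of genes called also moved to 17.3% for SM22-rtTA over uninduced and 27.6% for induced over SM22-rtTA with the second probe set, and with the mean of probe sets to 10.9% for hypoxia over the transgenic mean and 15.7% for induced over hypoxia. With the floor at the 70th percentile that of hypoxia over the transgenic mean was 10.3%. Where a call had also to lie outside the range of the 3 normal-pressure pools it was 5.33% for induced over uninduced, 11.8% for induced over SM22-rtTA and 9.66% for hypoxia over wild type, the last also with the range of the 2 transgenic pools, an alternative added after the data were seen; no member count moved. No paired analysis was possible because each condition has 1 array, and the noise floor limits Bmp2, Chrd, Grem1 and Fst.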
